A study of Mus musculus with 8 samples.

Results

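The semaphorins, their plexin receptors and the neuropilin co-receptors were examined in dopaminergic neurons sorted from the mouse ventral midbrain at E14.5, in the third week of gestation. The genes were taken by symbol, as every semaphorin of classes 3 to 7, every plexin and both neuropilins in the array's annotated probe table, which gave 30 genes of 24088 genes named on the array. They were 7 secreted class 3 semaphorins, 12 membrane semaphorins, 2 neuropilins and 9 plexins, with 33 probes in the table, and where a gene had several, the probe of highest mean signal stood for it. Gfp-positive cells were collected by flow sorting after papain dissociation of a rostral and a caudal piece of the ventral midbrain, which gave 4 rostral and 4 caudal pools. Between 5 and 7 embryos, mixed over litters, went into each. Every embryo was Pitx3(gfp/+), that is, carried a gfp allele at Pitx3, a transcription factor gene of midbrain dopaminergic neurons, beside its other Pitx3 allele, so the rostral pools, the caudal pools and the reference shared this genotype. On every 2-colour Agilent array a sorted pool in Cy3 was set against 1 shared Cy5 reference, pooled from the Gfp-negative cells of these embryos.

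Semaphorins are guidance proteins that steer growing axons and migrating neurons, mostly as repellents. Class 3 members are secreted and are held by a neuropilin, which binds the ligand, while a class A plexin carries the signal into the cell; the membrane-bound classes bind plexins directly. The cytoplasmic part of a plexin acts on small GTPases, among them those of the Ras and Rap families, and through them on the actin and microtubule skeleton, and semaphorins are among the cues that guide the axons of midbrain dopaminergic neurons toward the forebrain.

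The 6 genes of the family that differed between rostral and caudal pools included Sema3c, Sema5a and Sema5b, higher in rostral pools, and Nrp1 and Plxnc1, lower in rostral pools. The 250 bases before the transcription start of these 5 genes are shown to set the promoters of both directions side by side (RefSeq, GRCm38.p6; 5′ to 3′ on the gene's own strand). Capitals mark GGGCGG, the core letters bound by Sp factors, or its reverse complement CCGCCC. The windows are chr5:17574566-17574815 (plus strand) for Sema3c, chr15:32244563-32244812 (plus) for Sema5a, chr16:35541112-35541361 (plus) for Sema5b, chr8:128358823-128359072 (plus) for Nrp1 and chr10:94944846-94945095 (minus) for Plxnc1.
Sema3c: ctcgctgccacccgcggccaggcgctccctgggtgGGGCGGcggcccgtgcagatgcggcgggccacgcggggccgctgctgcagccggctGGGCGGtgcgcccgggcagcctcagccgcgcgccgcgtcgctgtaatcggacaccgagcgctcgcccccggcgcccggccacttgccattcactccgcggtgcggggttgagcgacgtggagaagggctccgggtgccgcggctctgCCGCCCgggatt
Sema5a: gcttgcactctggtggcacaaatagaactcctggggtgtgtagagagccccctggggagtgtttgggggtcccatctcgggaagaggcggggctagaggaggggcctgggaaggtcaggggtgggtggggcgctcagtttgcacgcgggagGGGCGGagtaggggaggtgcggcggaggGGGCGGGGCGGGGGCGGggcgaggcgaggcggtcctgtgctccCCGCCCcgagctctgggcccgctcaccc
Sema5b: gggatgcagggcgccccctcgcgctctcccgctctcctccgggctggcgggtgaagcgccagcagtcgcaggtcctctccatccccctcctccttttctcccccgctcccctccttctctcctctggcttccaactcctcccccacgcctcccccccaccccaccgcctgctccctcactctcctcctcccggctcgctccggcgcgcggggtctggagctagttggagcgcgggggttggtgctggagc
Nrp1: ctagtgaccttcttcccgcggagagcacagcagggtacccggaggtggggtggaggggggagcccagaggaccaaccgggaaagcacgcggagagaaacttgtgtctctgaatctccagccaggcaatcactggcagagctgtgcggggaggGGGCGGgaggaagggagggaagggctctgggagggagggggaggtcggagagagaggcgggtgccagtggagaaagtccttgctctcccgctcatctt
Plxnc1: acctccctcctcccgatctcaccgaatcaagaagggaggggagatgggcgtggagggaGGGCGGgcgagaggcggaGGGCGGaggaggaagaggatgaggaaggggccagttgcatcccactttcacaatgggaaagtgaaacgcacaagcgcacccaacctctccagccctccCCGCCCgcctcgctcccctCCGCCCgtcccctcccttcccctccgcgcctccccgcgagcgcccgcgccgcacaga

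Sema5a and Plxnc1 held 5 and 4 such matches, Sema3c 3, Nrp1 1 and Sema5b 0. Sema4b, the other gene lower in rostral pools, has alternative starts, whose windows held 2 matches each and are not shown. The genes of 1 direction thus did not share a count. RefSeq promoters matched 25 of the 30 genes, with 35 windows for their alternative starts, and 26 of these (74.3%) held GGGCGG on either strand against 32.7% of all 32851 mouse promoters of the same length. The median GC content was 64.4% in the family's windows and 52.4% in all. The E-box CANNTG stood in 18 windows (51.4%, against 66.2% of all). None of the family's windows held AAAGGTCA, the letters bound by Nr4a factors, TGTTTAC of Foxa factors, TAATCC of Otx and Pitx factors, TAATTA of homeobox factors or GACCACCCA of Gli factors, on either strand, where 1.34%, 3.17%, 6.25%, 4.84% and 0.225% of all promoters did. Overlapping matches were each counted, and a match is a description of letters only.

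The arrays were read as the log2 ratio of Cy3 to Cy5, that is, sorted cells over the Gfp-negative reference, after background correction and normalisation within each array. Probes well above background made up 62.5% to 70.4% of all in Cy3 and 54.0% to 63.5% in Cy5, and the ratios of any pair of arrays correlated at 0.81 to 0.907 across genes. No spot of the family was saturated or marked as an outlier. The 12 dopaminergic markers were all higher in sorted cells than in the reference (median log2 ratio 3.64), and markers of other cells were mostly lower: 9 of 9 tested progenitor markers, 8 of 10 GABAergic, 6 of 7 endothelial and 6 of 7 pericyte and mesenchyme markers, but 0 of 7 microglial markers, of which 1 was higher. Precision is limited by the number of arrays, and the p-values cover the spread between pools. In bulk samples fewer cells of a type and less RNA per cell cannot be told apart.

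The first comparison set Gfp-positive cells against the Gfp-negative reference over all 8 pools. All 6 tested secreted ligands were lower in the sorted cells. Membrane semaphorins were split, with 5 higher, 5 lower and 2 not called. Of the 9 plexins 5 were higher, 1 lower and 3 not called, and of the 2 neuropilins 1 was higher and 1 not called. Of the 29 genes tested, 11 were higher and 12 lower (limma, adjusted p below 0.05 over all 18703 genes tested), or 79.3%, against 71.4% of all genes called, 34.5% higher and 36.8% lower, so the share called was close to that of all genes. The median log2 ratio was -0.10 over the family and -0.00 over all genes. In 17 of the 30 genes every pool had the same sign. No such count is given for all genes, so it is not read as a trait of the family. The reference enters as 1 control sample whose own spread is left out, and because dyes were not swapped a dye effect is part of each ratio. Of all genes called, 48.4% were higher, a share of 53.9% with the scanner's processed signals and 61.4% with each array only centred on its median.

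**Figure D1:**
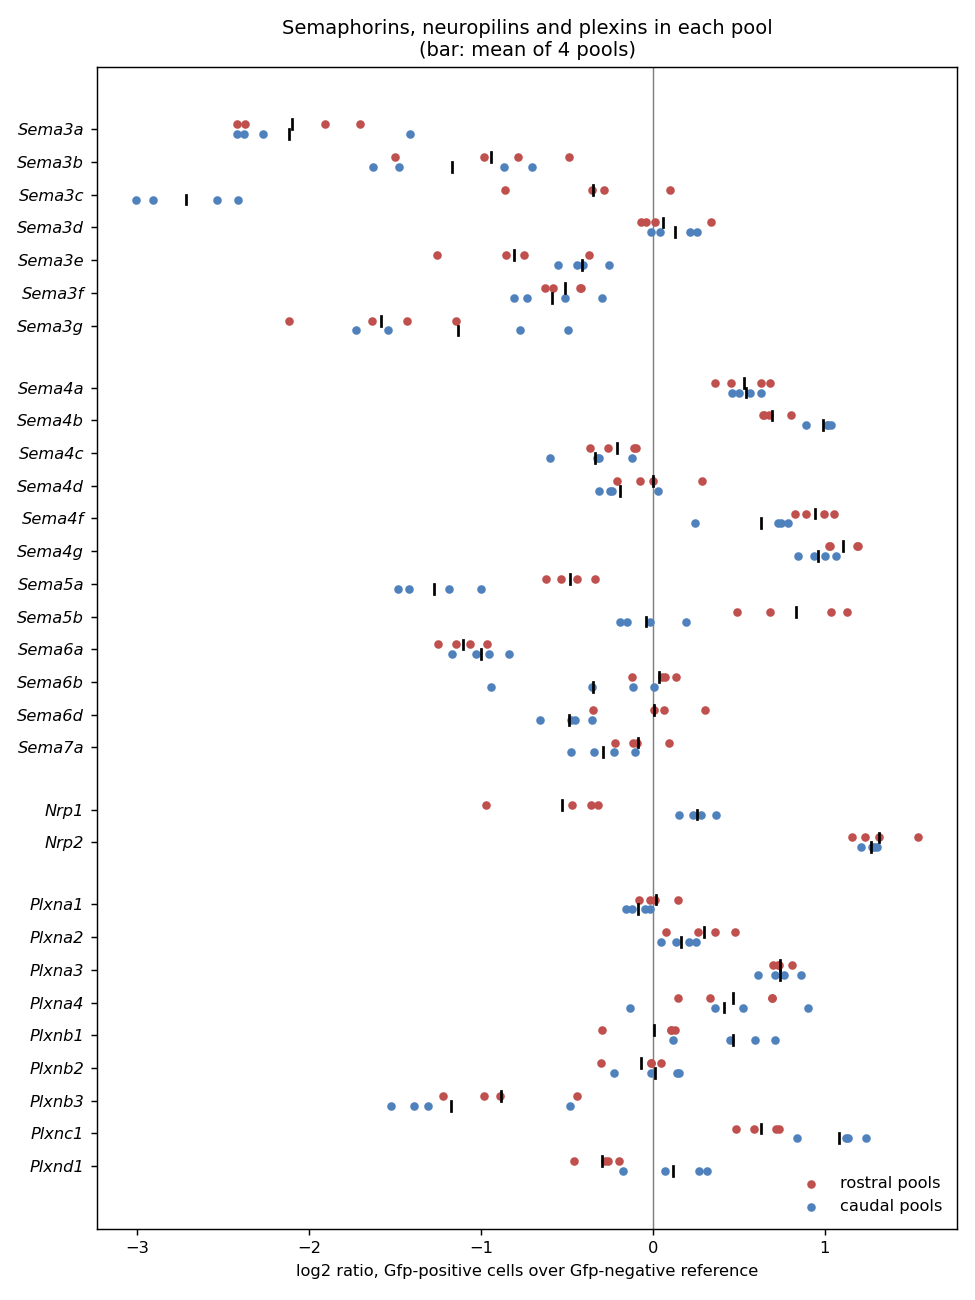
Log2 ratio of Gfp-positive cells over the Gfp-negative reference (horizontal axis) for each of the 30 genes, with 1 point per pool (red, 4 rostral; blue, 4 caudal) and a bar at each group's mean. The class 3 semaphorins lie mostly left of 0, Nrp2 right of 0 in all 8 pools, and the rostral and caudal points of Sema3c, Sema5a and Sema5b are apart; Sema3d, not well above background on any array, is plotted but was not tested.

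All 6 tested class 3 semaphorins were lower in sorted cells than in the reference, with a median log2 ratio of -1.21. Sema3a, the repellent ligand of Nrp1, had log2 ratios of -2.42, -1.91, -2.37 and -1.71 in rostral pools and -2.38, -2.42, -2.27 and -1.42 in caudal pools. All 8 pools lay below the reference, the 2 groups overlapped, and the mean was 4.32-fold lower (log2 -2.11, 95% interval -2.40 to -1.82, adjusted p 2.94e-07 by limma). A dimmer Sema3a probe, well above background in only 4 of 8 pools, gave -0.34 (adjusted p 0.0551 by limma). Sema3g, a ligand of Nrp2, had -1.43, -2.12, -1.64 and -1.15 in rostral and -1.73, -0.49, -1.54 and -0.77 in caudal pools. Every pool was again below 0, with a spread between pools of over 1 log2 unit, and the mean was -1.36 (adjusted p 2.69e-05 by limma). Its second probe, well above background in 1 pool and in no reference, read 0.16 and did not pass (adjusted p 0.15).

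Sema3b, a ligand of the neuropilins, had log2 ratios of -0.79, -0.49, -0.99 and -1.50 in rostral and -0.86, -0.71, -1.48 and -1.63 in caudal pools. The 2 groups covered nearly the same range, and the mean was -1.06, or 2.08-fold lower than the reference (adjusted p 5.14e-05 by limma). Sema3c, which binds both neuropilins, was 2.89-fold lower over all pools (log2 -1.53 ± 0.11 SE, adjusted p 8.34e-07), but its pools fell into 2 groups that are described with the rostral-caudal comparison. Sema3e, which binds Plxnd1 without a neuropilin, and Sema3f, the preferred ligand of Nrp2, were lower by smaller amounts, with means of -0.61 and -0.55 and every pool between -1.26 and -0.25. Sema3d was not well above background in any pool or reference, so no level or difference is given for it.

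Membrane semaphorins went both ways: 5 were higher, 5 lower and 2 did not pass, with a median of -0.13, and of the 5 lower genes Sema4c, Sema6d and Sema7a turned direction under another scaling or probe. Sema4g, a class 4 ligand that binds Plxnb2, had log2 ratios of 1.19, 1.03, 1.19 and 1.02 in rostral and 0.94, 0.84, 1.06 and 1.00 in caudal pools. All 8 pools were above 0, with a mean 2.05-fold above the reference (log2 1.04, adjusted p 6.62e-09 by limma). Sema4b, another class 4 ligand, was 1.79-fold higher (log2 0.84, adjusted p 1.02e-08), and its pools are given below. Sema4f, a class 4 protein, had 1.06, 1.00, 0.83 and 0.89 in rostral and 0.73, 0.25, 0.75 and 0.79 in caudal pools. All 8 pools were above 0 and the mean was 1.72-fold higher (log2 0.79, adjusted p 6.46e-06), against 0.29 with its second probe (adjusted p 0.0121 by limma). Sema4a was 1.45-fold higher (log2 0.53, pools between 0.36 and 0.68) and Sema5b 1.32-fold higher (log2 0.40). The Sema5b mean covers 2 unlike groups, at 0.83 in rostral and -0.04 in caudal pools, so the caudal pools were not above the reference on average.

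Sema6a, the ligand of Plxna2 and Plxna4, had log2 ratios of -0.96, -1.06, -1.15 and -1.25 in rostral and -1.17, -0.96, -0.84 and -1.03 in caudal pools. It was thus lower in every pool, by 2.07-fold on average (log2 -1.05, adjusted p 4.73e-08 by limma). Sema5a, whose extracellular part carries thrombospondin repeats, was 1.84-fold lower (log2 -0.88). Sema4c, a ligand of Plxnb2, averaged -0.27 but 0.28 with the scanner's processed signals, and Sema7a, the lipid-anchored ligand of Plxnc1, averaged -0.19 but 0.16 with median centring, a setting that moved the median of all genes to 0.13, so neither has a settled direction. Sema4d, the ligand of Plxnb1, averaged -0.10 (95% interval -0.25 to 0.06) and Sema6b, a ligand of Plxna4, -0.16 (-0.38 to 0.07), and neither passed the test.

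Sema6d, a ligand of Plxna1, gave readings of opposite sign from 2 probes. The probe of the annotated table had log2 ratios of -0.35, 0.30, 0.01 and 0.07 in rostral and -0.45, -0.36, -0.66 and -0.48 in caudal pools, with a mean of -0.24 (adjusted p 0.0223 by limma). A brighter probe, named only through its accession, had 0.80, 0.86, 0.72 and 0.73 in rostral and 0.81, 0.52, 0.81 and 0.80 in caudal pools, with a mean of 0.76 (adjusted p 7.66e-08). The caudal pools had opposite signs on the 2 probes, and the call of the table's probe was lost without rostral pool 1 (adjusted p 0.0579) or caudal pool 3 (0.0619), so no direction is given for the gene. Sema6c had no probe named by the table; its 2 accession-named probes read 0.21 and 0.38, both higher than the reference.

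Among receptors, Nrp2, which binds Sema3f, had the highest mean ratio among the table's probes. Its pools gave log2 ratios of 1.55, 1.24, 1.31 and 1.16 in rostral and 1.29, 1.21, 1.28 and 1.30 in caudal pools. All 8 pools were above 1, the groups overlapped, and the mean was 2.45-fold above the reference (log2 1.29, 95% interval 1.21 to 1.38, adjusted p 1.95e-09 by limma); a second probe read 1.57. Nrp1, the neuropilin of Sema3a, averaged -0.14 over all pools (95% interval -0.32 to 0.05) and did not pass, since its rostral and caudal pools lay on opposite sides of 0.

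Of the 9 plexins, 5 were higher, 1 was lower and 3 did not pass, with a median of 0.23. Plxnc1, the receptor of Sema7a, was 1.81-fold higher (log2 0.86, adjusted p 1.76e-07 by limma), although a dim second probe read -0.15 (adjusted p 0.226). Among the class A plexins, which signal with neuropilins, Plxna3 was 1.67-fold higher (log2 0.74, pools between 0.61 and 0.86), Plxna4 1.36-fold (log2 0.44, pools between -0.13 and 0.90) and Plxna2 1.17-fold (log2 0.23). The Plxna4 probe of the table was well above background in the reference on 1 of 8 arrays and read 1.38 with the scanner's processed signals; a brighter probe named by accession read 1.45 (pools between 1.25 and 1.69, adjusted p 2.53e-09). Plxnb1, the receptor of Sema4d, was 1.18-fold higher (log2 0.24), a call lost without caudal pool 1 (adjusted p 0.0523 by limma). Plxnb3, a receptor of Sema5a, was 2.04-fold lower (log2 -1.03, pools between -1.52 and -0.44). Its probe cleared the background in 4 rostral pools but only 2 caudal ones, and the log2 ratio was -2.003 with the scanner's processed signals and -1.35 with a background offset of 10. Plxna1 and Plxnb2, both at -0.03, and Plxnd1 at -0.09 did not pass; Plxna1 read 0.29 with median centring. For Plxnd1 this depends on the probe, since a brighter probe named by accession read -0.41 and was called lower (adjusted p 0.00425 by limma).

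Rostral Gfp-positive pools were then set against caudal ones. Of 29 genes tested, 3 were higher in rostral pools (Sema3c, Sema5b and Sema5a) and 3 lower (Nrp1, Plxnc1 and Sema4b), and 23 did not pass. These 6 were 20.7% of the family's tested genes, beside 6.22% of all 18195 genes called, 3.47% higher and 2.74% lower. The pools of the 2 groups did not overlap for 9 of the 29 genes (31.0%), beside 12.5% of all genes. The family's median difference was 0.07 and that of all genes 0.01. All 8 arrays lay on 1 slide in 2 rows, with 2 pools of each group in either row. Row 1 held pools 1 and 2 of each group and row 2 pools 3 and 4, so row and replicate number are not separate.

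**Figure D2:**
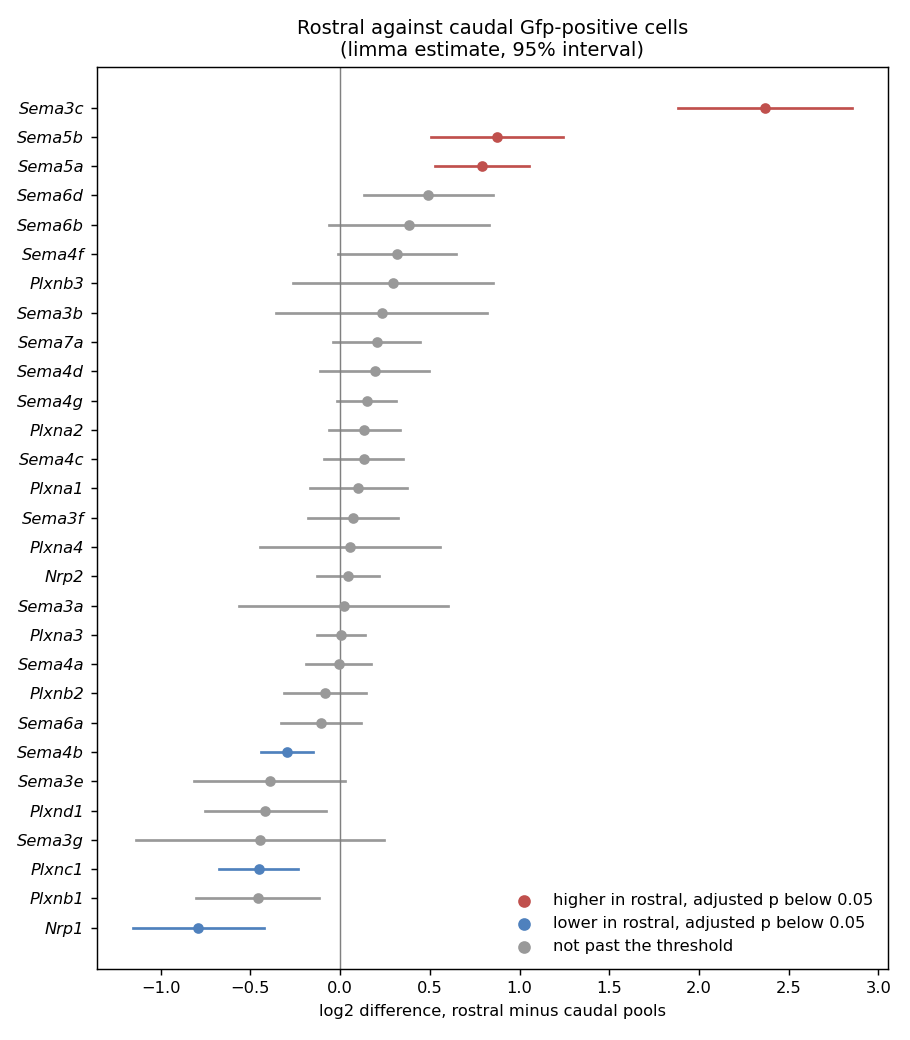
Difference of the log2 ratios, rostral minus caudal pools (horizontal axis), for the 29 tested genes in order of size, with the limma estimate as a point and its 95% interval as a line. The intervals of Sema3c, Sema5b and Sema5a (red) lie right of 0, those of Sema4b, Plxnc1 and Nrp1 (blue) left of 0, and grey genes did not pass the adjusted threshold.

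Sema3c showed the largest difference of the family. Its log2 ratios were 0.10, -0.28, -0.35 and -0.86 in rostral pools and -3.01, -2.54, -2.41 and -2.91 in caudal pools. Every rostral pool was more than 1 log2 unit above every caudal pool. The rostral mean was -0.35 ± 0.40 and the caudal mean -2.72 ± 0.29 (SD, n = 4 each), a 5.16-fold difference (log2 2.37 ± 0.22 SE, adjusted p 0.000669 by limma). The scanner's processed signal of the sorted cells was 1216, 895, 845 and 557 in rostral pools and 110, 133, 147 and 98.1 in caudal pools. The reference channel read 874 to 1065 on the rostral arrays and 765 to 957 on the caudal arrays, so the gap was in the sample channel. A dim second probe, detected above background in 3 rostral pools and 0 caudal ones, differed by 0.56 without passing (adjusted p 0.247 by limma).

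Sema5a and Sema5b, the transmembrane semaphorins with thrombospondin repeats, were both higher in rostral pools. Sema5a had log2 ratios of -0.53, -0.33, -0.62 and -0.44 in rostral and -1.19, -1.42, -1.48 and -1.003 in caudal pools. It was below the reference in all 8, further so in every caudal pool, and the difference was 1.73-fold (log2 0.79 ± 0.12 SE, adjusted p 0.0051 by limma). Sema5b had 1.03, 0.68, 1.13 and 0.49 in rostral and -0.15, 0.19, -0.02 and -0.19 in caudal pools. The rostral pools were all above the reference and the caudal pools around it, a 1.83-fold difference (log2 0.88 ± 0.16 SE, adjusted p 0.0132 by limma). A second Sema5b probe gave 0.87 (adjusted p 0.00974 by limma). The calls of Sema3c, Sema5a and Sema5b were kept without any 1 pool.

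Nrp1 was lower in rostral pools. Its log2 ratios were -0.36, -0.32, -0.97 and -0.47 in rostral and 0.28, 0.37, 0.15 and 0.24 in caudal pools. All rostral pools lay below the reference and all caudal pools above it, with means of -0.53 ± 0.30 and 0.26 ± 0.09 (SD, n = 4 each) and a 1.73-fold difference (log2 -0.79 ± 0.16 SE, adjusted p 0.021 by limma). The probe was dim, with processed signals of 17.03 to 43.55 in rostral and 47.7 to 64.3 in caudal sorted cells, though well above background in all 8 pools. The difference was -1.40 with those processed signals and -1.30 in the sample channel alone. The adjusted p was 0.0589, 0.0587 and 0.0533 without caudal pool 1, 2 or 4.

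Plxnc1, the receptor of Sema7a, had log2 ratios of 0.59, 0.72, 0.73 and 0.48 in rostral and 1.14, 0.84, 1.24 and 1.12 in caudal pools. It was above the reference in all 8 and lower in every rostral pool than in every caudal pool, by 1.37-fold (log2 -0.45 ± 0.10 SE, adjusted p 0.025 by limma). Its second, dim probe gave -0.47 and did not pass (adjusted p 0.274). Sema4b had 0.81, 0.68, 0.65 and 0.64 in rostral and 1.01, 1.04, 0.89 and 1.02 in caudal pools. The groups were again apart, with a 1.23-fold lower mean in rostral pools (log2 -0.30 ± 0.06 SE, adjusted p 0.0251 by limma). The call of Plxnc1 was lost without rostral pool 1 or 4 or caudal pool 1, 3 or 4 (adjusted p 0.0585 to 0.0734), and that of Sema4b without rostral pool 2, 3 or 4 or caudal pool 1, 2 or 4 (adjusted p 0.0619 to 0.0745), all by limma.

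**Figure D3:**
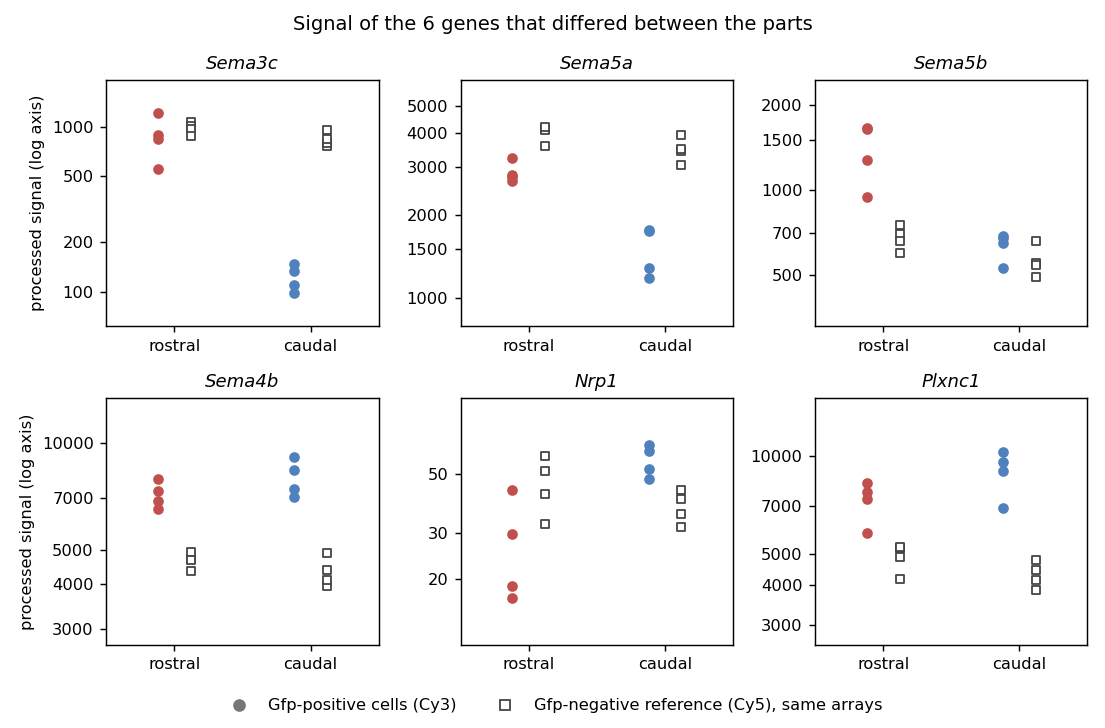
Scanner-processed signal, on a log axis that differs between panels, of the 6 genes that differed between rostral and caudal pools. Filled points are Gfp-positive cells (red, rostral; blue, caudal) and open squares the Gfp-negative reference on the same arrays; the sorted-cell signals of Sema3c are 557 to 1216 in rostral and 98.1 to 147 in caudal pools while its reference squares stay level. The sorted-cell signals of Sema4b and Plxnc1 overlap between the groups, although their ratios do not.

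Within row 1 of the slide alone and row 2 alone, each with 2 rostral and 2 caudal pools, the differences kept their direction. They were 2.68 and 2.05 for Sema3c, 0.87 and 0.71 for Sema5a, 0.84 and 0.91 for Sema5b, -0.66 and -0.92 for Nrp1, -0.33 and -0.57 for Plxnc1, and -0.28 and -0.31 for Sema4b. Only Sema3c in row 2 passed (adjusted p 0.0481 by limma), in fits where 0 of all genes were called in row 1 (2379 at an unadjusted p below 0.05) and 183 in row 2.

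Some members were apart or nearly so without passing the test. Plxnd1, the receptor of Sema3e, had log2 ratios of -0.26, -0.28, -0.19 and -0.46 in rostral and -0.17, 0.07, 0.27 and 0.32 in caudal pools. The groups did not overlap, and the difference of -0.42 had an adjusted p of 0.155 (limma). The brighter Plxnd1 probe gave -0.65, -0.57, -1.17 and -0.95 in rostral and 0.00, -0.51, 0.28 and 0.28 in caudal pools. There the difference was -0.85 and passed (adjusted p 0.0357 by limma), so the gene's call depends on the probe. Sema4f (0.32, adjusted p 0.289) and Sema6d (0.49, adjusted p 0.119) had every rostral pool above every caudal pool, but the brighter Sema6d probe differed by 0.04. Plxnb1 differed by -0.46 (95% interval -0.80 to -0.12, adjusted p 0.125 by limma).

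For genes that did not pass, the intervals bound what could have been missed, and some narrow and wide ones are given. Nrp2 differed by 0.04 (95% interval -0.13 to 0.22), Plxna3 by 0.00 (-0.13 to 0.14), Sema4a by -0.01 (-0.19 to 0.17) and Sema6a by -0.11 (-0.33 to 0.12). Sema3a differed by 0.02 with a wider interval of -0.56 to 0.60, and Sema3g by -0.45 (-1.14 to 0.24). Sema3e, the ligand of Plxnd1, differed by -0.39 (-0.82 to 0.03). Intervals were also wide for Sema6b at 0.39 (-0.06 to 0.83) and Plxnb3 at 0.29 (-0.27 to 0.85). The same held for Sema3b at 0.23 (-0.36 to 0.82) and Plxna4 at 0.05 (-0.45 to 0.56). A p that misses the threshold does not show that these genes had equal levels.

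**Figure D4:**
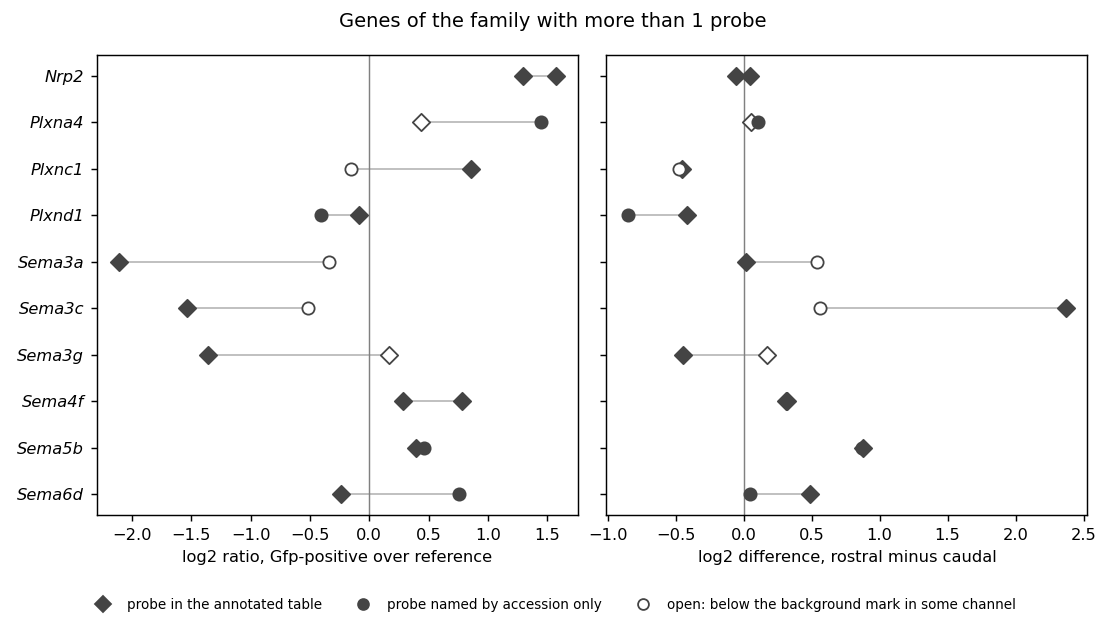
Estimates from each probe of the 10 genes with more than 1 probe, as the log2 ratio of Gfp-positive cells over the reference (left) and the log2 difference, rostral minus caudal (right); diamonds are probes of the annotated table, circles probes named by accession, and open marks probes not well above background in every pool and reference. The filled probes of Sema6d lie on opposite sides of 0 on the left, and the probes of Sema5b coincide on the right.

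Some markers of other cell types also differed between the groups. The counts below stand beside 6.22% of all genes called, 3.47% higher and 2.74% lower. Of 5 tested oligodendrocyte precursor markers 0 were called, and likewise 0 of 5 tested erythroid markers. The summed processed signal of 10 GABAergic markers was 50438 to 79644 in rostral and 31998 to 44519 in caudal pools; Gad2, Dlx1 and Dlx2 were higher and Tal1 and Tal2 lower in rostral pools. Dlx1 cleared the background in 4 rostral pools and 0 caudal ones, so it entered the test only through the rostral pools. That of 8 diencephalic and hypothalamic markers was 957 to 2480 in rostral and 268 to 364 in caudal pools, with 4 of 7 tested higher, of which Fezf1, Six6 and Pmch were well above background in at most 1 caudal pool and likewise entered through the rostral pools. The pan-neuronal sum was 276301 to 322747 in rostral and 243529 to 275677 in caudal pools. In the log2 ratios the 9 pan-neuronal markers had a median difference of 0.06, with Nefl higher and Tubb3 lower. All sums given here add processed signals that were not scaled between arrays, so the brightness of an array enters them. Of 4 serotonergic markers the sum was 146 to 200 in rostral and 235 to 336 in caudal pools, Fev was lower in rostral pools and Tph2 was well above background in no pool. Of 6 glutamatergic and red nucleus markers Tbr1 was higher and Pou4f2 and Lhx9 lower in rostral pools, with sums of 7889 to 12887 in rostral and 9376 to 10814 in caudal pools. Of 9 tested progenitor markers only Vim was called, lower in rostral pools (log2 -0.63, adjusted p 0.0119 by limma). Their median difference was 0.01, and the sums overlapped (15682 to 20837 in rostral, 18764 to 19226 in caudal pools). Of 6 tested motor neuron markers only Isl1 was called, higher in rostral pools (0.65, adjusted p 0.0119 by limma). Their median difference was -0.42, and the sums overlapped (1178 to 1698 in rostral, 948 to 1614 in caudal pools). The sums overlapped for dopaminergic (458863 to 593508 in rostral, 482511 to 624863 in caudal pools, Slc18a2, En1 and Ret lower in rostral), microglial (10820 to 37856 and 8082 to 28386, Mrc1 higher), pericyte and mesenchyme (612 to 6835 and 414 to 702, 0 of 6 called, Rgs5 in no pool) and endothelial markers (1443 to 3291 and 1730 to 2794, 0 of 7 called). The part of these cells in the differences of Sema3c, Sema5a, Sema5b, Nrp1, Plxnc1 and Sema4b was not tested.

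Partners of the receptors were described from a list of 11 membrane co-receptors and other semaphorin receptors. Against the reference, 3 were higher and 7 lower of 11 tested (median log2 -0.20), beside 34.5% higher and 36.8% lower of all genes. Chl1, an L1-family adhesion molecule that associates with Nrp1, was 0.61 to 0.84 above the reference in all 8 pools (mean 0.72, adjusted p 1.01e-08 by limma). Erbb2, a kinase that couples to class B plexins, averaged -1.01, Itga1, an integrin subunit well above background in 1 of 8 pools, -1.06, and Nrcam, an adhesion molecule that associates with Nrp2, -0.20. Between the groups, 0 of 10 tested were higher and 1 was lower, beside 6.22% of all genes called. This was Nrcam, with -0.31, -0.20, -0.45 and -0.35 in rostral and -0.04, -0.14, -0.10 and -0.03 in caudal pools (difference -0.25, adjusted p 0.0343 by limma). No co-receptor was called without rostral pool 3 or 4, without caudal pool 1, 3 or 4, with median centring or without the intensity trend. Kdr, a VEGF receptor, differed by -0.65, L1cam by 0.35 and Chl1 by -0.10, none of which passed.

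Downstream of plexins, 17 of 33 tested effectors were higher than the reference and 10 lower (median log2 0.19), beside the same 34.5% and 36.8% of all genes. Those with the smallest p were Cfl1, the actin-severing cofilin (-1.18), Rnd3, a small GTPase (-2.17), Rap1b, a GTPase of the family that plexins inactivate (0.83), and Crmp1, a collapsin response mediator (-0.50). Between the groups 3 were higher and 1 lower of 33, beside 3.47% and 2.74% of all genes, with a median of -0.01. Without rostral pool 1 or 4 or caudal pool 3 or 4, 2 effectors were called in all. Arhgef12, a guanine nucleotide exchange factor bound by class B plexins, had log2 ratios of 0.18, 0.10, 0.18 and 0.16 in rostral and -0.34, -0.42, -0.57 and -0.15 in caudal pools, a difference of 0.53 (adjusted p 0.00688 by limma). Rnd3 was higher by 0.45 (adjusted p 0.0228) and Rap1b by 0.22 (0.0426). Rnd2, another small GTPase, had -0.54, -0.39, -0.68 and -0.51 in rostral and 0.14, 0.05, 0.04 and -0.06 in caudal pools, a difference of -0.57 (adjusted p 0.0134 by limma).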

How the data were processed

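Per the file headers, the authors read the deposited spot intensities with Agilent Feature Extraction, version 10.7.3.1; the submitters' processing notes also list RMA, giving no role. The median intensities of spot and local background were used. The processed intensities, background-subtracted and dye-normalized by the authors per the file headers, served as an alternative and for printed signals. A deposited table supplied probe symbols only, since its 8 value columns match no sample label. In R 4.3.3 with limma 3.58.1, background was corrected (normexp, offset 50), arrays were normalized by loess without control and outlier spots, and log2 ratios of Cy3 over Cy5 were fitted with group means and an intensity trend. P-values were 2-sided and adjusted by Benjamini-Hochberg over all genes tested. Testing required a probe marked well above background on at least 4 of 8 arrays, in the sample channel for rostral against caudal and in either channel otherwise. Of 55681 probes, 27509 were named by accession, 4124 by the table and 24048 not at all; the family used the table's probes only. The method was tested on simulated data, where 94.5% of genes changed by 1 log2 unit were recovered against the reference (18649 genes) and 68.5% between rostral and caudal pools (18143 genes). Pool values are given for genes called between the groups, the 5 highest and 5 lowest against the reference and genes whose probes differ in sign; of each pathway list, the 4 genes of smallest p are named. The genes, lists and tests were chosen with earlier results of these data known. Alternatives covered scaling, offset, dim-probe filter, probe choice, trend, blocks, slide row, sample channel and each pool left out.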

Additional observations from a re-analysis of the deposited data

Results flagged for a closer look

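In 60 groups of 4 pools, 4 held a pool far from the other three, where chance gives about 1 in 20. Plxnb1 read -0.30 in rostral pool 2 and 0.10 to 0.13 in the other rostral pools. Plxnb2 read -0.30 in rostral pool 4, beside -0.01 to 0.05. Sema3a read -1.42 in caudal pool 4, beside -2.42 to -2.27. Sema4f read 0.25 in caudal pool 2, beside 0.73 to 0.79.

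The ratio to the reference differed between rostral and caudal pools, by limma, for Sema3c (2.37), Sema5b (0.88), Sema5a (0.79), Nrp1 (-0.79), Plxnc1 (-0.45) and Sema4b (-0.30), each as rostral minus caudal on the log2 scale. Of these, Nrp1 had all rostral pools below and all caudal pools above the reference.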

How the results depend on the processing

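Against the reference, 11 genes higher and 12 lower became 10 to 11 and 11 to 12 without any 1 pool; over all genes 12694 to 12963 were called, of the co-receptors 10 and of the effectors 26 to 27. Between rostral and caudal pools, 3 genes stayed higher and 0 to 2 lower; over all genes 714 to 994 were called, of the co-receptors 0 to 2 and of the effectors 2 to 4. Signs turned against the reference with median centring for Plxna1 (0.29), Sema4d (0.27) and Sema7a (0.16), with processed signals for Sema4c (0.28), and with another probe for Plxnc1 (-0.15), Sema3g (0.16) and Sema6d (0.76, also when probes named by accession were admitted). The cause was not tested. The Plxnc1 and Sema3g readings came from dim probes that did not pass (adjusted p 0.226 and 0.15 by limma). They show no direction, though both count among the 8 that turned below. Over single members and alternatives, 594 values against the reference kept their side of the threshold (9 uncalled ones changed sign), 14 lost the call, 2 gained one and 8 turned; between the groups 612 kept their side (33 uncalled ones changed sign), 32 lost the call and 2 gained one. In row 1 of the slide alone, 4 co-receptors were called against the reference. Between the groups, fits on 2 against 2 pools called 0 members higher, 0 lower, 0 co-receptors, 0 effectors and 0 of all genes in row 1 (2379 at an unadjusted p below 0.05). In row 2 these counts were 1, 0, 0, 0 and 183. Without an intensity trend 1 member was lower and 0 co-receptors were called, with median centring 0 co-receptors, and in the sample channel alone 2 effectors. A fit with the replicate number as a block called 721 of all genes between the groups against 1131 without it, 1 member lower (Plxnc1 at an adjusted p of 0.0651 and Sema4b at 0.0711), 0 co-receptors and 1 effector. Same-numbered pools correlated at 0.02, -0.01, -0.06 and -0.01 in their deviations from the group means, and not every pool correlated best with its own number. Such values show no shared deviation of same-numbered pools. They cannot decide whether those pools came from the same embryos, so a pairing was neither shown nor excluded. Scaling between arrays leaves each ratio as it was.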
